A study of Mus musculus with 2 samples.

Results

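Adult haemoglobin is a tetramer of alpha and beta globin chains, each holding a haem. In C57BL/6 mice the alpha chains come from the pair Hba-a1 and Hba-a2 and the beta chains from the pair Hbb-bs and Hbb-bt. These genes are transcribed at very high levels in erythroblasts, and their messenger RNA persists in reticulocytes after the nucleus is lost. Alas2 encodes the erythroid form of the first enzyme of haem synthesis, and Klf1 encodes an erythroid transcription factor that binds CACCC elements in globin promoters. The spleen of the mouse holds red cells, erythroid precursors and the macrophages that clear aged red cells. These 6 genes were taken by symbol from the deposited gene table. Of the 6, 5 were listed among its 14774 genes. Klf1 was not listed and is not analysed here, and 100 reads was the lowest control value of any gene in the table.

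The RNA came from cells labelled as splenic CD4+CD25+ regulatory T cells (Tregs) of C57BL/6 mice, after 5 days of co-culture with SVEC4-10 cells, an endothelial line of the mouse made with the virus SV40. Before that, the endothelial partner had received small interfering RNA (siRNA) to Capns1 or a control oligonucleotide. Capns1 is the gene of the small subunit shared by the conventional calpain proteases. The labels name no animal numbers and no transgene, and the siRNA was given to the endothelial cells, not to the cells labelled as Tregs. There was 1 library per condition, called here the control library and, after what its endothelial partner received, the siRNA library.

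The listed genes held 47724379 control and 46938963 siRNA library reads. At this depth 3 reads correspond to 0.0626 and 0.0642 CPM, the unit of level used here, which sets a gene's reads against a library size scaled by TMM factors. TMM, the trimmed mean of M values, sets the scale so that the average log fold over genes, with the extremes trimmed, is 0. A fold is the CPM of the siRNA library over that of the control, and is given with its exact 95% Clopper-Pearson interval. These intervals take reads as independent molecules, cover counting error only, and set 1 library against another, which is not a test of the conditions. Without replicates there are no p-values. The lowest value of any listed gene was 100 reads in the control and 37 in the siRNA library. Genes with fewer than 100 control reads are thus absent whatever their siRNA library reads, so counts of low-level genes can lean towards lower folds. Defining markers of the labelled cell type were present at low levels. Of 10 Treg markers, 8 were listed, with a summed level of 74.4 CPM in the control library against 67.0 CPM with siRNA. Foxp3, the defining factor of Tregs, stood at 5.22 and 4.73 CPM. Cd4 stood at 8.22 and 6.25 CPM, below Cd8a at 63.9 and 56.5 CPM, both named after their values were seen. The listed B cell markers summed to 2832 and 2516 CPM. The label of the cells was thus not borne out by these levels. The summed level of the 4 globin genes was 2565 and 2309 CPM.

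The copies of each globin pair are nearly the same sequence, which bears on how their reads can be told apart. In the GENCODE M21 transcripts matched to the table, the coding sequences of Hba-a1 and Hba-a2 are both 429 bases long and are 99.8% identical, with 1 difference, C381T (Hba-a1 base, position from the A of the start codon, Hba-a2 base). Those of Hbb-bs and Hbb-bt are 444 bases long and 99.8% identical, with 1 difference, C417T (Hbb-bs base first). The 41 coding bases around each difference are given here to show how little separates the copies, with the differing base in capitals.
Hba-a1: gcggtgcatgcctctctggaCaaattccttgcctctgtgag
Hba-a2: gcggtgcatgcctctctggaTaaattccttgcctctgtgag
Hbb-bs: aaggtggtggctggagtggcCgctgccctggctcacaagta
Hbb-bt: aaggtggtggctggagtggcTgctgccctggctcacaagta
Of all stretches of 100 bases in the Hba-a1 transcript, 56.5% also occur unchanged in Hba-a2, and of those in Hba-a2 74.5% occur in Hba-a1. For the beta genes the shares are 62.6% of Hbb-bs and 54.8% of Hbb-bt. With stretches of 150 bases, 65.7% of Hba-a2 and 58.7% of Hbb-bs still have an exact copy in the partner. How the authors' counting placed such reads is not stated in the sources used here, and so the split within a pair is uncertain, while the sum over a pair does not depend on it unless reads were dropped or entered under both copies.

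The upstream sequences are shown as background, because these promoters are textbook cases of erythroid control. Whether they bear on the folds was not tested. RefSeq promoter windows of build GRCm38.p6 were found for all 6 genes, and the 250 bases before each start were searched on both strands for CACCC (the core letters of sites for Krüppel-like factors), for GATAA (those of GATA factor sites) and for TATAA (those of the TATA box). The 210 bases before the start are printed 5′ to 3′ on the gene's strand, with every match in capitals.
Hbb-bs, chr7:103827929-103828138, minus strand: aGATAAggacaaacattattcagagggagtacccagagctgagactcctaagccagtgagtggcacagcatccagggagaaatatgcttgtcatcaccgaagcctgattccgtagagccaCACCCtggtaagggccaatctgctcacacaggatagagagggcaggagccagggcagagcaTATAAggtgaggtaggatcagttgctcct
Hbb-bt, chr7:103813924-103814133, minus strand: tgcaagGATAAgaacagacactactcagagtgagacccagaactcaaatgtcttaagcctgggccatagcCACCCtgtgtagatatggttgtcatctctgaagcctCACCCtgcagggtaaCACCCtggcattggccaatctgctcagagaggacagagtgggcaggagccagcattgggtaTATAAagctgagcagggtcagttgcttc
Hba-a1, chr11:32283462-32283671, plus strand: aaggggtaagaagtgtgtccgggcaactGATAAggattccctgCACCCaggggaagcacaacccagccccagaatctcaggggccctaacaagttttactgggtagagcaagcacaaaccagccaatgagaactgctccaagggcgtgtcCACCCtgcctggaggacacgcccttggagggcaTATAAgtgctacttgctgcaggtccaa
Alas2, chrX:150547207-150547416, plus strand: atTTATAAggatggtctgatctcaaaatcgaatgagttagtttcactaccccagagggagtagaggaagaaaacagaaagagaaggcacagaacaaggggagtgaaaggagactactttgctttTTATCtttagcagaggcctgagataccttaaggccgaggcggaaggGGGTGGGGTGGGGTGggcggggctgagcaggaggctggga
The Hba-a2 window was identical to that of Hba-a1 at 240 of 240 bases compared after a shift of 3 bases. Counting back from the start, TATAA began at position -29 in Hbb-bs, at -28 in Hbb-bt and at -27 in Hba-a1. In Alas2 it began at -207, and CACCC was found 3 times on the reverse strand between positions -40 and -26. All 3 letter sets occurred within 250 bases in the 5 listed genes. The Klf1 window held CACCC and GATAA but not TATAA. Of 32851 mouse promoter windows, 2.61% held all 3. CACCC alone occurred in 52.0%, GATAA in 22.6% and TATAA in 22.8% of them. A match is a description of the letters and not a bound site.

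Globin transcripts were abundant in both libraries and lower in the siRNA library. Hbb-bs (NCBI Gene 100503605), the most abundant of the beta genes, had 41009 control and 35444 siRNA library reads, or 856 and 758 CPM. It stood in place 82 of all listed genes by reads in the control and in place 103 in the siRNA library. Its fold was 0.886 (95% interval 0.873 to 0.898). Hbb-bt (NCBI Gene 101488143), the second adult beta gene, had 15093 and 12563 reads, which is 315 and 269 CPM, and a fold of 0.853 (0.833 to 0.873). Both beta genes were thus lower in the siRNA library by more than counting error. In bulk RNA such as this, fewer cells of a type and less RNA per cell cannot be told apart.

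The alpha genes were lower by a smaller amount. Hba-a1 (NCBI Gene 15122) had 36082 control and 32388 siRNA library reads, which is 753 and 693 CPM, and a fold of 0.920 (95% interval 0.906 to 0.934). Hba-a2 (NCBI Gene 110257) had 30704 and 27581 reads, which is 641 and 590 CPM, and also a fold of 0.920 (0.906 to 0.936). The folds of the alpha copies were the same to 3 digits, and the split of reads between them is uncertain, as given above.

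**Figure D1:**
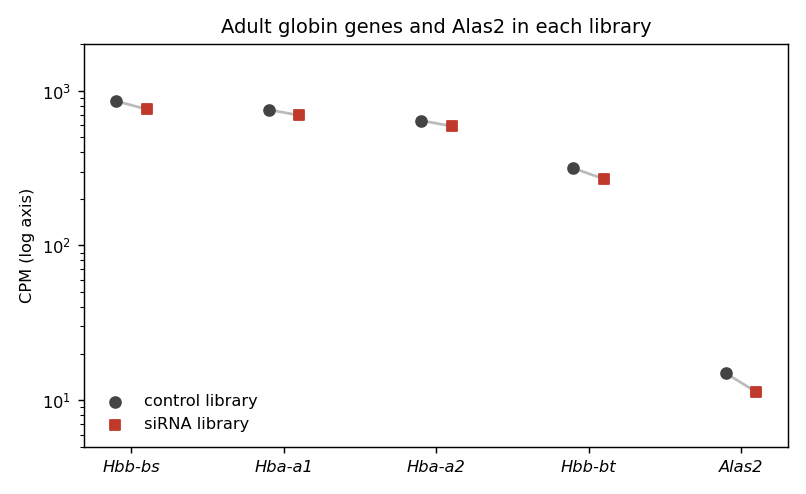
Level of each listed gene in CPM (log axis) in the control (grey circles) and the siRNA library (red squares), 1 library each. All 4 globin genes lie between 269 and 856 CPM and Alas2 at 14.9 and 11.3 CPM, and each of the 5 is lower in the siRNA library.

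Sums over each pair do not rest on the split between copies. The beta genes together had 56102 control and 48007 siRNA library reads, 1171 and 1027 CPM, and stood at a fold of 0.877 (95% interval 0.866 to 0.888). The alpha genes together had 66786 and 59969 reads, 1394 and 1283 CPM, and stood at a fold of 0.920 (0.910 to 0.930). The intervals of the beta and the alpha sum do not overlap. All 4 genes took 122888 reads, 0.257% of those in listed genes, in the control, and 107976 reads, 0.230%, in the siRNA library, a fold of 0.9003 (0.893 to 0.908).

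**Figure D2:**
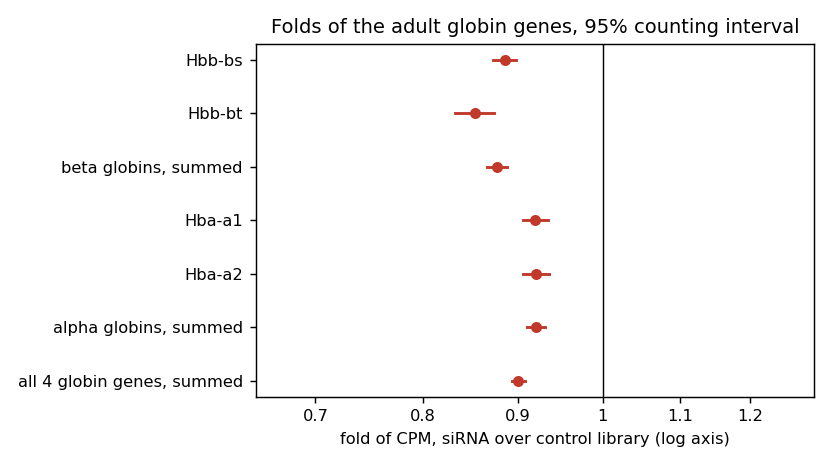
Fold of CPM, siRNA over control library (log axis), of each adult globin gene and of the summed reads, with points for the fold and lines for the exact 95% interval of counting error. Every interval lies below 1, and the beta sum at 0.877 lies below the alpha sum at 0.920.

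The make-up of the globin reads can be read within a library, with no scaling between libraries. Alpha genes held 54.3% of adult globin reads in the control (exact 95% interval 54.1 to 54.6) and 55.5% in the siRNA library (55.2 to 55.8). The gap between the chains was therefore small, although it exceeded counting error. Hbb-bt held 26.9% of beta reads in the control (26.5 to 27.3) and 26.2% in the siRNA library (25.8 to 26.6), and these intervals overlap slightly. Hba-a2 held 46.0% of alpha reads in both libraries (45.6 to 46.4 in each).

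Per kilobase of transcript the order of levels was the same in both libraries. Hbb-bs was highest at 1363 CPM per kb in the control and 1207 in the siRNA library, followed by Hba-a2 at 1157 and 1065, Hba-a1 at 1077 and 991, and Hbb-bt at 448 and 382. Alas2 was far below at 7.34 and 5.54 CPM per kb. The M21 transcripts of Hba-a1 and Hbb-bt carry longer 5′ UTRs (196 and 127 bases) than those of Hba-a2 and Hbb-bs (35 and 53 bases), which lowers their values per kb, so the order of the neighbours Hba-a2 and Hba-a1 is not firm. The split of reads between Hbb-bs and Hbb-bt is uncertain, as given above, so their order and the first place of Hbb-bs are not firm either. There are no replicates from which to give a spread for these levels.

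Alas2 (NCBI Gene 11656) had the fold farthest from 1 of the listed members. It had 716 control and 528 siRNA library reads, which is 14.9 and 11.3 CPM, and a fold of 0.756 (95% interval 0.674 to 0.847). There were 172 adult globin reads for each Alas2 read in the control and 204.5 in the siRNA library. Alas2 made up 0.579% of the joint reads of Alas2 and the globins in the control (0.538 to 0.623) and 0.487% in the siRNA library (0.446 to 0.530), so it was lower than the globins in proportion.

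These counts have to be read against all genes. Intervals below 1 were found for all 5 listed members and for 22.7% of all 14774 genes, while 24.2% of all genes had an interval above 1. Intervals narrow with depth, and among the 2644 genes with a mean of at least 100 CPM, where the 4 globin genes belong, 36.0% had an interval below 1. A fold of at most 0.9 was found for 13.0% of those abundant genes and for 2 of the 4 globins, Hbb-bs and Hbb-bt. The cutoff of 0.9 was not in the planned call rule. It lies between the beta and the alpha folds, so the count of 2 of 4 follows from where it was placed. None of the members was at a fold of 0.5 or less with an interval below 1, which 0.135% of all genes were. Among all genes the log2 fold of Alas2, -0.40, lay at percentile 3.33, that of Hbb-bt, -0.23, at 10.6, that of Hbb-bs, -0.18, at 15.7, and those of Hba-a1 and Hba-a2, both -0.12, at 23.6 and 23.8. The globins were therefore on the low side of the genes in these libraries without being extreme, and Alas2 was nearer the edge. Copies within a pair share reads, so the 4 globin genes are not independent observations.

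Globin transcripts are short, and in these libraries short transcripts tended to be higher in the siRNA library. Genes were put in 10 equal classes of transcript length. The 1339 genes of the shortest class, to which all 4 globins belong, had a median log2 fold of 0.09, and 9.93% of them had an interval below 1 against 40.2% above 1. Relative to that median, Hbb-bs stood at a log2 difference of -0.27, Hbb-bt at -0.32 and both alpha genes at -0.21. Within that class, 10.5% of genes had a lower log2 fold than Hbb-bt, 12.8% than Hbb-bs, 17.6% than Hba-a1 and 17.7% than Hba-a2. Alas2, in length class 3, stood at a log2 difference of -0.46 from the class median of 0.06, and 1.94% of the genes there had a lower log2 fold. The globins were thus lower where the median gene of their length was higher.

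**Figure D3:**
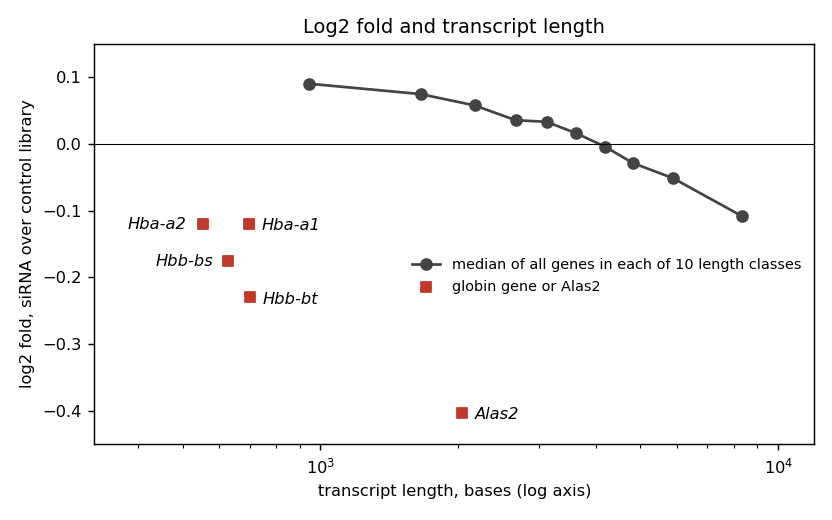
Log2 fold, siRNA over control library, against transcript length in bases (log axis). The line joins the medians of all genes with a known length in each of 10 classes of length, from 0.09 in the shortest to -0.11 in the longest, and the red squares are the 4 globin genes and Alas2, all of which lie below the line.

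The 3 genes nearest in fold to the beta sum, among those with a like level, were of another kind. Among 67 genes with a mean level near that of Hbb-bs, from 646 to 1009 CPM, the 3 with the log2 fold nearest to that of the beta sum (-0.19) were Srrm2, which encodes a splicing factor, at -0.20, Dync1h1, the heavy chain of cytoplasmic dynein, at -0.18, and Ahnak, a giant scaffold protein, at -0.24. All 3 have transcripts in the longest class, where the median log2 fold was -0.11. Relative to that median, Srrm2 stood at -0.09, Dync1h1 at -0.07 and Ahnak at -0.13, against -0.27 for Hbb-bs in its own class. The likeness in fold is thus less close once length is taken into account. This likeness rests on 2 libraries.

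Alas2 had an interval below 1, whereas 6 of the 13 genes of haem synthesis (46.2%) had one above 1, as did 24.2% of all genes. Haem is built from glycine and succinyl-CoA in a chain of enzymes that every nucleated cell has, and Alas2 is the erythroid counterpart of the ubiquitous Alas1. Of 13 haem synthesis and porphyrin transport genes, all were listed, with a median log2 fold of 0.10. Of these, 6 had an interval above 1, 2 (15.4%, against 22.7% of all genes) below 1 and 5 including 1. Alas1 had 2058 control and 2260 siRNA library reads, a fold of 1.13 (95% interval 1.06 to 1.195). Alas2 therefore held 25.8% of the joint reads of Alas1 and Alas2 in the control (24.2 to 27.5) and 18.9% in the siRNA library (17.5 to 20.4).

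The most abundant genes of the pathway stood above 1. Cpox, coproporphyrinogen oxidase, was at a fold of 1.11 (95% interval 1.07 to 1.15), Tmem14c, a porphyrin carrier of the mitochondrion, at 1.07 (1.02 to 1.12), and Alad, the second enzyme, at 1.18 (1.13 to 1.24). Abcb10, a mitochondrial transporter needed for haem synthesis in erythroid cells, was the other gene with an interval below 1, at 0.928 (0.870 to 0.990), and was picked for naming after its value was seen. Fech, which inserts the iron, was at 1.01 (0.948 to 1.07) and was picked likewise. Against the medians of their own classes of transcript length, the 13 genes had a median log2 difference of 0.06. Alas2 had the lowest log2 fold of the list.

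**Figure D4:**
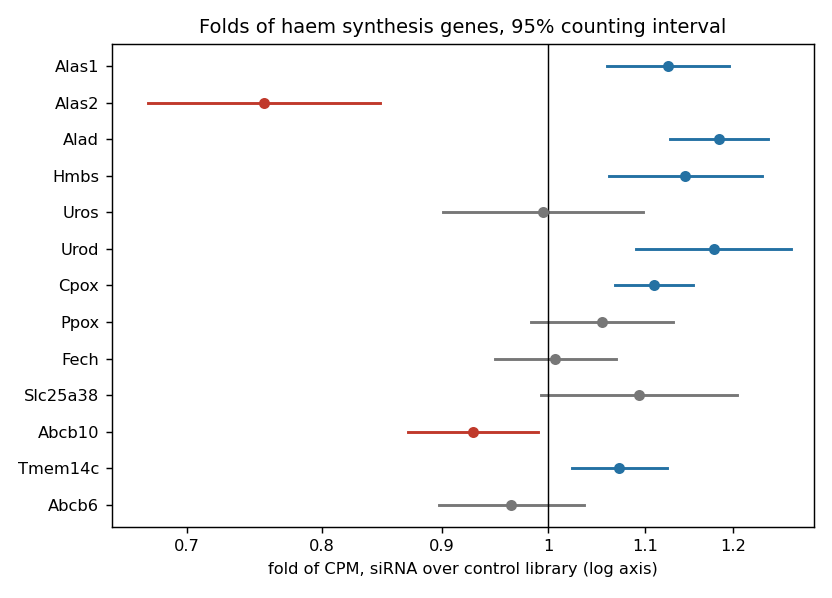
Fold of CPM, siRNA over control library (log axis), of 13 haem synthesis and porphyrin transport genes with the exact 95% interval of counting error, red where it lies below 1, blue where it lies above 1 and grey where it includes 1. Alas2 at 0.756 stands to the left of the other 12 genes, while its ubiquitous counterpart Alas1 stands at 1.13.

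Genes of erythroid transcription control did not all share one direction, with more intervals below 1 than above 1. Of 18 factors and cofactors 15 were listed, with a median log2 fold of 0.01, turning to -0.003 when reads were scaled by totals. Of the 15, 5 (33.3%) had an interval below 1, against 22.7% of all genes. An interval above 1 was found for 1 (6.67%), against 24.2% of all genes, and 9 included 1. Against the medians of their own classes of transcript length, the median log2 difference was -0.01. Gata1, the master factor of the lineage, and Gfi1b were not listed and, like Klf1, are not analysed here. The most abundant were Ldb1, the adaptor of GATA and LMO2 complexes, at a fold of 1.01 (95% interval 0.977 to 1.04), Klf3, a repressor of the Klf1 family, at 0.898 (0.866 to 0.932), and E2f4, a cell cycle factor, at 1.05 (1.01 to 1.10). Many of these genes are expressed in lymphoid, myeloid or stromal cells as well. Tal1, the stem cell leukaemia factor, which is more restricted, had 145 and 160 reads, a fold of 1.13 (0.897 to 1.43), and was named after its value was seen.

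Red cell membrane genes were listed in part and at low levels. Of 21, 11 were listed, 3 (27.3%) with an interval below 1, 0 above 1 and 8 including 1, with a median log2 fold of -0.02. Over all genes 22.7% had an interval below 1 and 24.2% above 1. The other 10 of the 21 have no fold here, and a gene with fewer than 100 control reads could not enter these counts. Slc4a1, the anion exchanger band 3, which marks late erythroid cells, was not listed. Among the most abundant, Epb41, protein 4.1 of the membrane skeleton, stood at 0.926 (95% interval 0.893 to 0.960), Mpp1, a partner of protein 4.1, at 1.03 (0.978 to 1.08), and Gypc, glycophorin C, at 0.985 (0.911 to 1.07). The lowest of the list was Sptb, the beta spectrin of red cells, with 285 and 182 reads and a fold of 0.654 (0.540 to 0.791). Xk, a membrane protein of the Kell complex, had 313 and 213 reads and a fold of 0.697 (0.583 to 0.833). Both were named after their values were seen. Ank1, erythroid ankyrin, which links spectrin to band 3 and was named in the same way, had 308 and 325 reads, a fold of 1.08 (0.922 to 1.27).

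Enzymes of the red cell lay close to equality. Of 18 genes 13 were listed, with a median log2 fold of -0.02, and Ahsp, the chaperone of free alpha globin, was not listed. Of the 13, 3 (23.1%) had an interval below 1, against 22.7% of all genes. An interval above 1 was found for 1 (7.69%), against 24.2% of all genes, and 9 included 1. Gpx1, glutathione peroxidase, stood at 1.02 (95% interval 0.990 to 1.04), Prdx2, the peroxiredoxin abundant in red cells, at 1.10 (1.06 to 1.14), and Bnip3l, which drives the loss of mitochondria in reticulocytes, at 0.958 (0.925 to 0.992).

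Receptors and signalling genes of erythropoiesis were mixed. All 13 were listed, with a median log2 fold of -0.06. Of them 5 (38.5%) had an interval below 1, 4 (30.8%) had one above 1 and 4 included 1. The shares over all genes were 22.7% below 1 and 24.2% above 1. Epor, the erythropoietin receptor, had 112 control and 97 siRNA library reads, a fold of 0.887 (95% interval 0.669 to 1.18). Jak2, its kinase, stood at 0.962 (0.931 to 0.995), Ireb2, an iron-responsive regulator, at 0.908 (0.878 to 0.940), and Pim1, a kinase gene induced by cytokines, at 1.04 (1.01 to 1.08). Kit, the receptor of stem cell factor, had 328 and 421 reads, a fold of 1.32 (1.14 to 1.52), and was named after its value was seen.

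Over these 5 lists, members left out, 64 of 81 genes were listed. Of the 64, 17 (26.6%) had an interval below 1, against 22.7% of all genes, and 12 (18.8%) had one above 1, against 24.2% of all genes. The remaining 35 intervals included 1. The median log2 fold of the 64 was 0.00, the same to 2 decimals as that of all listed genes.

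**Figure D5:**
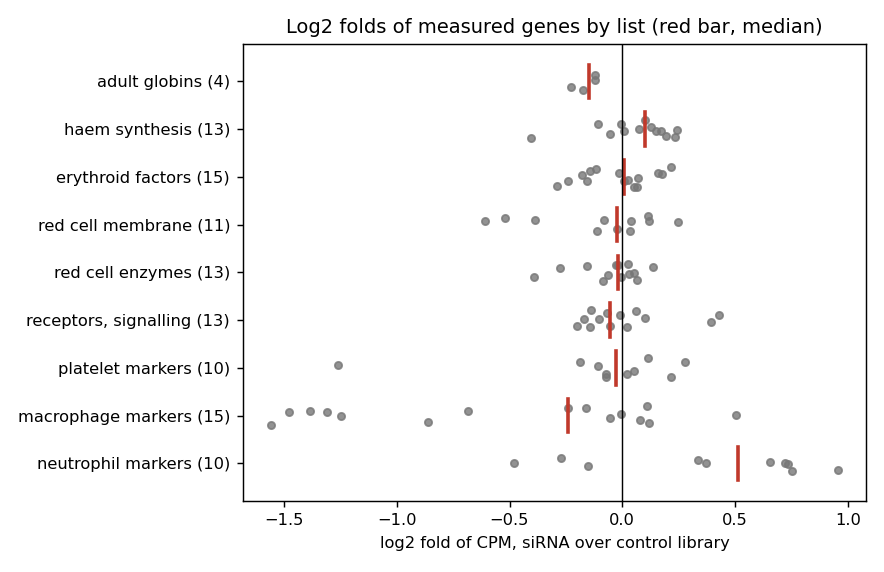
Log2 fold of CPM, siRNA over control library, of each measured gene (grey points, with vertical jitter for display) by list, with the number of measured genes in brackets and the median as a red bar. The globin points lie between -0.23 and -0.12, the erythroid lists spread to both sides of 0, the macrophage markers reach down to -1.56 and the neutrophil markers have a median of 0.51.

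Markers of other cell types moved too, and their part in the globin values was not tested. Macrophages of the spleen take up red cells, and of 20 markers of such macrophages 15 were listed, with a summed level of 709 CPM in the control library against 655 CPM with siRNA. Of the 15, 9 had an interval below 1 and 3 above 1, 5 had a fold of 0.5 or less, and the median log2 fold was -0.24. Over all genes 22.7% had an interval below 1, 24.2% had one above 1, and 0.135% had a fold of 0.5 or less with an interval below 1. Hmox1, the haem-degrading oxygenase, had 8274 and 7227 reads, 173 and 155 CPM, and stood at a fold of 0.895 (95% interval 0.867 to 0.924), close to that of the globins. Axl, a receptor for dying cells, stood at 1.08 (1.05 to 1.10) and Slc48a1, a haem transporter, at 0.997 (0.958 to 1.04). Spic, the factor of red pulp macrophages, and Cd163, the receptor for haemoglobin bound to haptoglobin, were not listed.

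Platelet and megakaryocyte markers, of cells that share precursors with the erythroid lineage, had 10 of 16 genes listed and a sum of 394 and 370 CPM. Their median log2 fold was -0.03, with 2 intervals below 1 (20%) and 2 above (20%). These shares lay near those of all genes, 22.7% below 1 and 24.2% above 1. Pf4, platelet factor 4, which macrophages can express as well, was the lowest at a log2 fold of -1.26. Rap1b, a GTPase of many cell types, stood at a fold of 0.952 (95% interval 0.929 to 0.975), F5, coagulation factor V, at 1.01 (0.922 to 1.11) and Itga2b, the platelet integrin chain, at 1.08 (0.981 to 1.19). Neutrophil markers, 10 of 11 listed, had a summed level of 387 CPM in the control library against 545 CPM with siRNA and a median log2 fold of 0.51. They were split, with 7 intervals above 1 (70%, against 24.2% of all genes) and 3 below 1 (30%, against 22.7% of all genes).

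B cell markers were lower in the siRNA library almost throughout. Of 10, 9 were listed, and 8 of the 9 (88.9%) had an interval below 1 and 0 above 1. Over all genes 22.7% had an interval below 1 and 24.2% above 1, and of genes with a mean of at least 100 CPM 36.0% had one below 1. Their median log2 fold was -0.18, beside -0.15 for the 4 globin genes, and they summed to 2832 and 2516 CPM, near the globin sum in level. T cell markers, 9 of 10 listed, had 4 intervals below 1 and 2 above 1, a median log2 fold of -0.07 and sums of 275 and 270 CPM. Of the 8 listed Treg markers 1 had an interval below 1 and 0 above 1, with a median log2 fold of -0.06. Endothelial markers, 5 of 12 listed, had 1 interval below 1 and 1 above 1, a median of -0.01 and sums of 115 and 112 CPM.

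Genes next to the members were set beside them last, a comparison added after the values were seen. Within 100 kb of the alpha genes, 6 of 11 other annotated genes were listed. Nprl3, whose introns hold the alpha globin enhancers, had 1257 and 1227 reads, a fold of 1.0002 (95% interval 0.924 to 1.08), and Mpg, a DNA repair gene beside it, stood at 0.947 (0.846 to 1.06). Rhbdf1, an inactive rhomboid protease, stood at 1.002 (0.931 to 1.08), and Snrnp25, a component of the minor spliceosome, at 1.23 (1.11 to 1.37). The intervals of Nprl3 and Rhbdf1 overlap those of Hba-a1 and Hba-a2, and their difference from the alpha genes was not tested. The remaining listed neighbours, Sh3pxd2b and Il9r, had folds of 0.907 (0.852 to 0.965) and 0.946 (0.779 to 1.15). None of the 17 other annotated genes within 100 kb of the beta genes was listed, among them the embryonic Hbb-y and Hbb-bh1. Near Alas2, 3 of 6 were listed. Tmem29 stood at a fold of 1.05 (0.882 to 1.26), Apex2, a DNA repair nuclease, at 1.21 (1.10 to 1.33), and Pfkfb1, a glycolytic regulator gene, with 120 and 193 reads, at 1.65 (1.31 to 2.09).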

How the data were processed

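1 table held both libraries. The authors deposited raw counts of mapped reads for each gene, as the column headers name them, and also scaled columns that were not used. The submitters' processing notes name Trimmomatic 0.39, BWA 0.7.17, mm8 and GRCm39 and say nothing of their order. The read counter, and any use of strand, are not given in the sources used. The prefixes Cont and Si of the columns were taken to mean control and siRNA, so a wrong match would turn every fold. The row of totals was left out, and 0.782% and 0.764% of the deposited totals fell outside the listed genes.

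TMM factors (1.004 and 0.996) came from edgeR 4.0.16 in R 4.3.3. Python 3.11.15 with scipy 1.17.1, pandas 2.3.3, numpy 2.4.6 and matplotlib 3.10.9 did the rest. A single library per group allows no dispersion estimate, so each fold has the exact interval of a ratio of reads and no test was fitted. A prior count of 0.5 entered the log2 folds. The interval and call steps were run on simulated counts with counting error only, as the intervals assume. That run therefore cannot show how the intervals fare with variation between libraries. Of 50 genes simulated at a true fold of 0.5, 44% came out at 0.5 or less with an interval below 1. GENCODE M21 transcripts (GRCm38) gave a length for 13381 genes (90.6%), by NCBI Gene ID or symbol. Coordinates are those of the RefSeq promoter windows on GRCm38.p6 and belong to no count.

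Named genes are the members, the 3 most abundant listed genes of each erythroid, platelet and macrophage list with its defining genes, and the 3 genes most like the beta sum. The rule also covers the lymphoid, endothelial and neutrophil lists, whose genes are not printed singly apart from Foxp3, Cd4 and Cd8a. Foxp3 and Cd4 lie outside the rule and are named, with Cd8a, as the check of the labelled cell type. Other genes outside it are stated as named after their values were seen. The members and lists were chosen with earlier results of these data known.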

Additional observations from a re-analysis of the deposited data

How the results depend on the processing

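Of the alternatives, DESeq2 1.42.0 size factors and total reads kept the fold of each member and of the sums within its 95% interval. So did upper-quartile scaling, apart from the sum of all 4 globin genes, which moved to 0.892. Over these scalings, Hbb-bs ran from 0.877 to 0.886 and Alas2 from 0.748 to 0.756, and the intervals of the members and sums lay below 1 under each, as did the 99% intervals, which leave the fold itself as it is. Taken relative to genes in the same of 10 classes of transcript length, the folds moved farther from 1, to 0.832 for Hbb-bs, 0.801 for Hbb-bt, 0.864 for Hba-a1 and 0.865 for Hba-a2, 0.824 for the beta sum, 0.864 for the alpha sum and 0.846 for all 4; by construction this divides by a median above 1. With Hba-a1 and Hbb-bs alone, the alpha share was 46.8% for the control and 47.7% for the siRNA library, since that leaves out Hba-a2 and the smaller Hbb-bt. Genes at a fold of 0.5 or less numbered 20, 8 of them with a mean of at least 5 CPM, and 180 genes were lower by at least 1.5-fold. The counts of intervals below 1 in the erythroid lists stayed within 1.5 times under every alternative run. No paired analysis was possible because each group has 1 library. At 112 reads, as for Epor, the interval spans from 0.669 to 1.18, so differences of that size were not detectable for such genes.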
